A study of Mus musculus with 177 samples.

Results

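The subject is the difference that hypoxia made in the brain of newborn mice when the phase after it was breathed at 100% oxygen. It was read from 20 of the 177 arrays of the series, and from 20 of its 59 brain arrays. They are the 11 arrays titled as hypoxia, 100% oxygen and brain, called H100 here, and the 9 titled as control, 100% oxygen and brain, called N100. The comparison was fitted with a block for the place of an array in the order of the sample records (the first 113 records against the later 64), and was repeated without H100 replicate 6, an array known from an earlier look at these data to resemble N100.

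H100 mice breathed gas with an inspired oxygen fraction of 0.08 for 120 min, then 100% oxygen for 30 min, and were then kept in normoxia for 150 min. N100 mice breathed an inspired oxygen fraction of 0.21 for the same 120 min, and then had the same 30 min of 100% oxygen and 150 min of normoxia, so both groups carry the exposure to 100% oxygen and differ, by their labels, in the hypoxia. H21 mice had the hypoxia followed by 30 min at 21% oxygen, and N21 mice breathed 21% throughout, with 9 brain arrays each. H40 (10 arrays) and H60 (11 arrays) had the hypoxia followed by 40% and 60% oxygen. All were C57BL/6 mice at postnatal day 7, with no genetic change named, and the design text says that the animals were randomized. Arrays of 1 group were taken as separate animals, which the labels do not state, so the p-values measure the spread between arrays. The values are log2 expression levels from whole brain tissue by RMA, which removes background, brings the arrays to a common distribution and combines the probes of each probe set.

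Tissue lacking oxygen stabilizes the transcription factor HIF, which raises genes of glycolysis and of vessel growth, and the fall of oxygen is also a systemic stress that releases glucocorticoids and inflammatory mediators. Metallothioneins, small cysteine-rich proteins that bind zinc and copper, are induced through metal response elements by the factor MTF1 and also by glucocorticoids. In brain, astrocytes and vessel cells answer injury and cytokines through STAT3, and lipocalin 2 is among the genes they then make.

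All 20 arrays correlated best with the brain profile among the 3 tissues. An array labelled H40 brain, replicate 7, correlated best with eye (r = 0.9587 across genes, against 0.8741 with brain) and was left out of the fit, which used 58 brain arrays and 19937 genes. The record block divided the groups unevenly: 6 of the 11 H100 arrays and 8 of the 9 N100 arrays are in its first part, and 8933 of the 19937 genes differed between the 2 parts in the fit (limma, adjusted p under 0.05). No label names it a batch. The H100 animals were 6 female and 5 male by their arrays, and the N100 animals 5 female and 4 male.

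Mt2 and Mt1, metallothionein genes that neighbour each other on mouse chromosome 8, had higher values in H100 than in N100, and Mt2 had the largest difference of the genes that passed the test. Their promoters are shown because their differences are described together below. Each window runs from 250 bases before to 50 after the start of the gene (RefSeq, GRCm38.p6, plus strand), chr8:94172368-94172667 for Mt2 and chr8:94178839-94179138 for Mt1, and the starts lie 6471 bases apart. Capitals mark metal response element cores, searched on both strands as TGCACNC or TGCGCNC, with 4 in the Mt2 window and 3 in the Mt1 window. A match describes letters and not a bound site, and 25.7% of 32851 promoter windows of this length hold at least 1.
Mt2: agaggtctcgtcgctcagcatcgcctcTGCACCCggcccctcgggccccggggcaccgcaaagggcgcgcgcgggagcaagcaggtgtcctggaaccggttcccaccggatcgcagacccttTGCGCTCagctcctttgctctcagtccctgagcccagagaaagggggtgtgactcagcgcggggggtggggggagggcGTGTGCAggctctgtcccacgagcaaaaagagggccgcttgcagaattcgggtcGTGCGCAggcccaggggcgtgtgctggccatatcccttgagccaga
Mt1: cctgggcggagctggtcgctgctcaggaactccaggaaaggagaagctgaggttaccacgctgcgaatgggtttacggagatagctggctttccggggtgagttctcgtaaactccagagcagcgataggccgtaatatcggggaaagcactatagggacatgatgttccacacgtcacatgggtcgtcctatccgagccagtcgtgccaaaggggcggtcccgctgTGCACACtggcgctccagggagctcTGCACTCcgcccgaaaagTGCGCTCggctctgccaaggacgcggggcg
Of the 8 genes with the smallest p among those higher in H100, and the 8 among those lower, 7 each had a promoter window. A metal response element core was in 3 of the 7 windows of higher genes and also in 3 of the 7 of lower genes. The hypoxia response core ACGTG was in 2 of the 7 windows of higher genes, in 3 of the 7 of lower genes and in 19.6% of all windows. The STAT site TTCNNNGAA was in 0 of the 7 windows of higher genes, in 1 of the 7 of lower genes and in 8.3% of all windows.

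A total of 3 genes rose in H100 brains relative to N100 brains at an adjusted p under 0.05, and 0 fell, out of 19937 (0.0150% called, limma with Benjamini-Hochberg adjustment). They are Mt2, Lcn2 and A2m. At an unadjusted p under 0.05 the count was 549 genes (2.75%), with 312 higher (1.56%) and 237 lower (1.19%). The median difference over all genes was -0.0015 on the log2 scale.

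Mt2 values in H100 brains ran from 9.97 to 12.09 with a median of 11.41 (log2, 11 arrays), against 9.18 to 10.92 with a median of 10.11 in N100 brains (9 arrays). The groups overlapped, with 9 of the 11 H100 arrays above every N100 array and H100 replicate 6 the lowest of its group at 9.97. The fitted difference was 1.16 ± 0.23 on the log2 scale (SE), 2.23-fold, with an adjusted p of 0.0424. Lcn2, which encodes lipocalin 2, a secreted protein that binds iron-carrying siderophores and an acute-phase product, was at 5.43 to 6.65 in H100 brains (median 6.15) and at 5.16 to 5.54 in N100 brains (median 5.41). The N100 arrays lay close together for this gene (SD 0.15, n = 9) and the H100 arrays were spread out (SD 0.43, n = 11), with 10 of the 11 above every N100 array. Its difference was 0.77 ± 0.15, 1.71-fold, with an adjusted p of 0.0424. A2m, which encodes alpha-2-macroglobulin, a protease inhibitor of plasma that reactive glia also make, was at 7.44 to 8.05 in H100 brains (median 7.87) and at 6.93 to 7.56 in N100 brains (median 7.30). Only 2 H100 arrays fell within the N100 range, and the difference was 0.53 ± 0.11, 1.45-fold, with an adjusted p of 0.0424. In bulk tissue, fewer cells of a type and less RNA per cell cannot be told apart, nor can more of either.

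**Figure D1:**
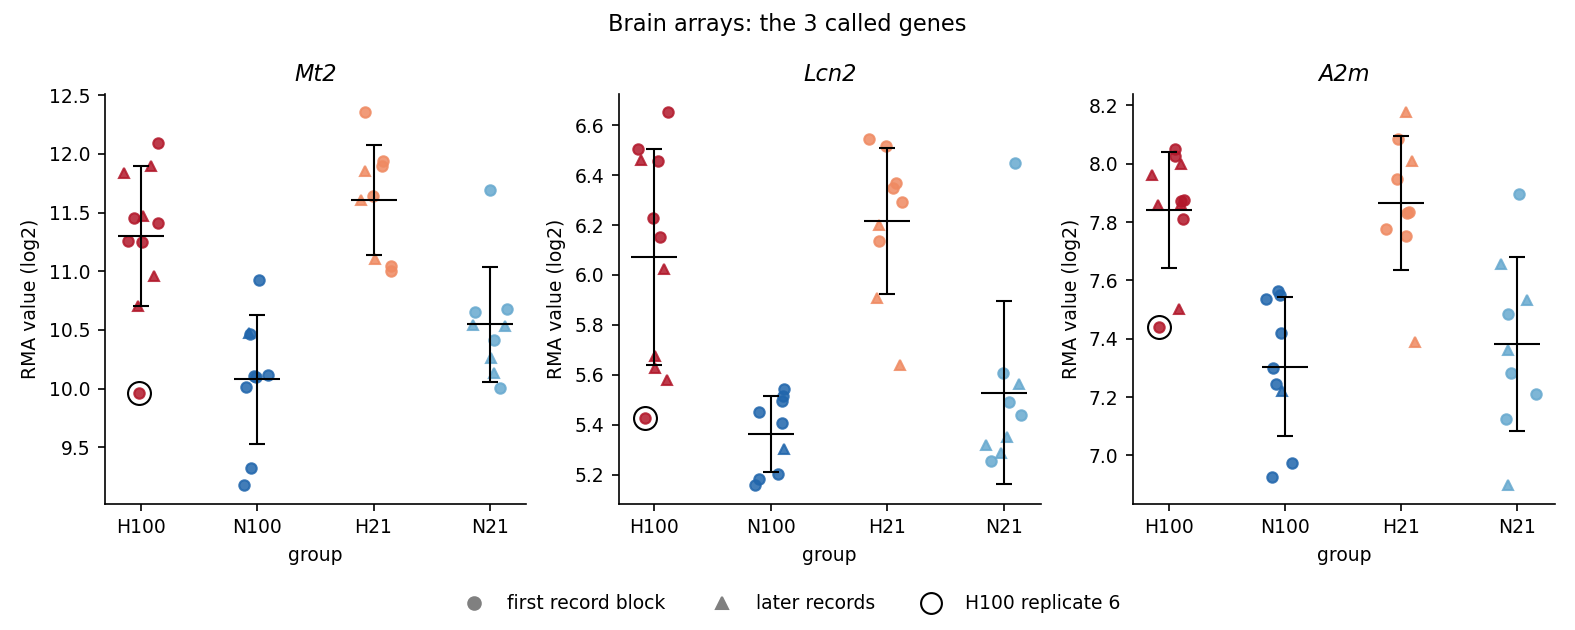
RMA values (log2, vertical axis) of Mt2, Lcn2 and A2m in each brain array of H100, N100, H21 and N21, with the mean and SD of each group as black bars; circles are arrays of the first record block, triangles later ones, and the ringed circle is H100 replicate 6. The H100 arrays lie mostly above the N100 arrays for each gene, with the ringed array the lowest of its group.

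These 3 calls sat close to the threshold and depended on the block and on the arrays in the fit. With a block of 3 levels none of them held, at adjusted p-values of 0.0601 for Mt2, 0.0511 for Lcn2 and 0.0601 for A2m, and Ccl12 alone was called (limma). With only the H100 and N100 arrays in the fit 0 genes were called, and 732 had an unadjusted p under 0.05. Leaving out 1 of the 20 H100 and N100 arrays at a time gave 0 called genes in 14 of 20 fits. The 6 fits that kept a call left out H100 replicate 6 (4 genes), H100 replicate 7 (3), H100 replicate 8 (2), H100 replicate 9 (1), N100 replicate 1 (2) or N100 replicate 3 (2). The size of the difference moved little: over 33 alternatives Mt2 stayed between 1.05 and 1.30 and A2m between 0.49 and 0.61, and over 32 Lcn2 stayed between 0.71 and 0.92.

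A further 5 genes complete the 8 with the smallest p among those higher in H100, and none of them passed the test. Fkbp5, a co-chaperone that restrains the glucocorticoid receptor and is itself induced by glucocorticoids, was at 8.03 to 8.68 in H100 brains (median 8.33) and at 7.79 to 8.19 in N100 brains (median 7.999), with 10 of 11 H100 arrays above every N100 array. Its difference was 0.39 ± 0.09 with an adjusted p of 0.23. Ccl12, a chemokine that draws monocytes, was at 4.55 to 6.20 in H100 brains (median 5.59) and at 3.73 to 5.48 in N100 brains (median 4.71), and its difference was 0.77 ± 0.18 with an adjusted p of 0.23. The Ccl12 groups overlapped more, with 7 of 11 H100 arrays above every N100 array. Stat3, the transcription factor of the interleukin-6 family pathway, had a difference of 0.39 ± 0.09 and an adjusted p of 0.428. Pdk1, the kinase that shuts pyruvate dehydrogenase and a classical HIF target, had a difference of 0.27 ± 0.07 and an adjusted p of 0.441. Mt1 was at 10.13 to 11.29 in H100 brains (median 10.83) and at 9.82 to 10.65 in N100 brains (median 10.35), and its difference of 0.51 ± 0.13 had an adjusted p of 0.495. The third metallothionein on the array, the neuronal Mt3, differed by 0.01 ± 0.14.

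The 8 genes with the smallest p among those lower in H100 had smaller differences, between -0.24 and -0.44, and none passed the test. Blnk, an adaptor of B-cell receptor signalling that microglia also express, was at 4.13 to 5.11 in H100 brains (median 4.78) and at 4.92 to 5.50 in N100 brains (median 5.17). Its difference was -0.44 ± 0.11 with an adjusted p of 0.523, and 8 of 11 H100 arrays were below every N100 array. Car4, a membrane-bound carbonic anhydrase of brain capillaries, had -0.33 ± 0.10, and S1pr1, the sphingosine-1-phosphate receptor of endothelium and astrocytes, had -0.26 ± 0.08. P2ry12, the ADP receptor of resting microglia, was at 4.92 to 5.82 in H100 brains (median 5.50) and at 5.49 to 6.49 in N100 brains (median 5.77), a difference of -0.32 ± 0.11. Siglech, a sialic-acid-binding lectin of microglia, had -0.29 ± 0.10. Insyn1, a protein of inhibitory synapses, had -0.25 ± 0.08, with 9 of 11 H100 arrays below every N100 array. Ctdspl, a phosphatase, had -0.24 ± 0.08, and Myorg, a glycosidase known from astrocytes, had -0.27 ± 0.09. For these last 7 genes the adjusted p was 1.

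**Figure D2:**
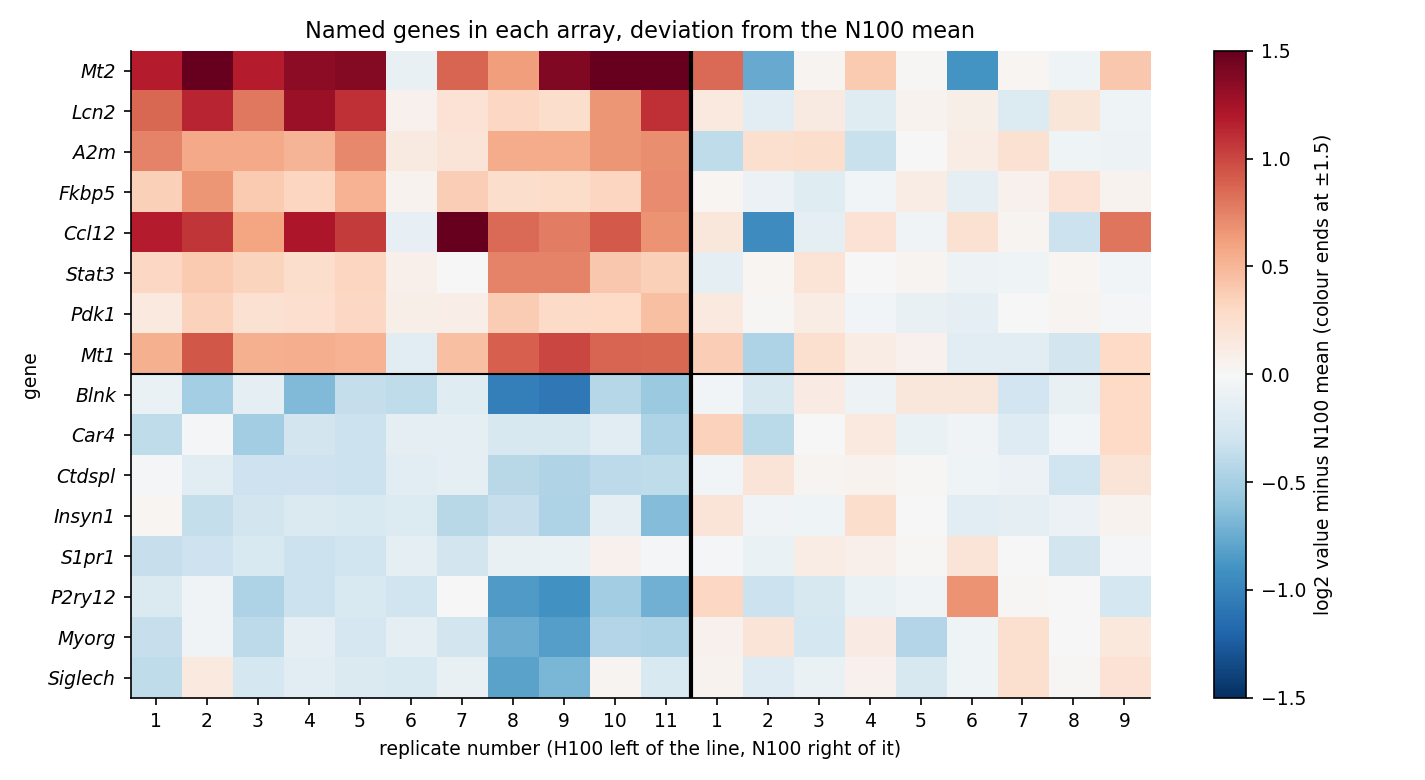
Deviation of each array's log2 value from the N100 mean of the gene (colour, ending at ±1.5) for the 8 genes with the smallest p in each direction, with the 11 H100 arrays left of the line and the 9 N100 arrays right of it. Replicate 6 of H100 is pale in the 8 upper rows, where most other H100 arrays are red, and replicate 7 is pale too for Stat3 and Pdk1.

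H100 replicate 6 was the lowest H100 array for 7 of the 8 genes with higher values, and for Stat3 it was the second lowest. Its deviation from the N100 mean was -0.11 for Mt2 and 0.07 for Lcn2. Its median correlation with the other brain arrays was 0.989 across genes, and its profile was that of brain. It was also the lowest H100 array in mean level for 7 of the 21 pathway lists and 6 of the 18 cell type marker lists, among them myelin (6.80), astrocyte (9.54) and cerebellar (6.57) markers, and the part of these in its place among the arrays was not tested. For the 8 lower genes it was not set apart: it lay below the N100 mean for all of them, with a deviation of -0.38 for Blnk and -0.29 for P2ry12. A score whose genes came from other brain arrays alone also placed it with N100. The 50 genes with the smallest p between the hypoxia groups H21, H40 and H60 and the N21 group, 26 higher and 24 lower, gave each array the mean of the first less the mean of the second. They include 6 of the 8 higher genes and 2 of the 8 lower genes named above, so the score partly repeats the same values. H100 arrays scored 0.37 to 1.07 with a median of 0.99, and N100 arrays 0.45 to 0.67 with a median of 0.50. Of the 11 H100 arrays, 10 were above all 9 N100 arrays, and replicate 6, at 0.37, was below all 9. With the named genes taken out, 42 genes were left, and again 10 of the 11 H100 arrays were above all 9 N100 arrays and replicate 6, at 0.09, below them. No gene of that comparison passed the test in the other groups (0 called, 395 at an unadjusted p under 0.05, smallest adjusted p 0.314, limma), so the score ranks arrays on a scale of uncalled genes and carries no test. Of its 26 higher genes, 21 were also higher in H100 than in N100 (median difference 0.30), and of its 24 lower genes 18 were lower (median -0.04). Over all genes 49.3% were higher in H100. The 6 and 2 named genes among them were chosen in H100 minus N100, so their direction there was set by that choice.

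**Figure D3:**
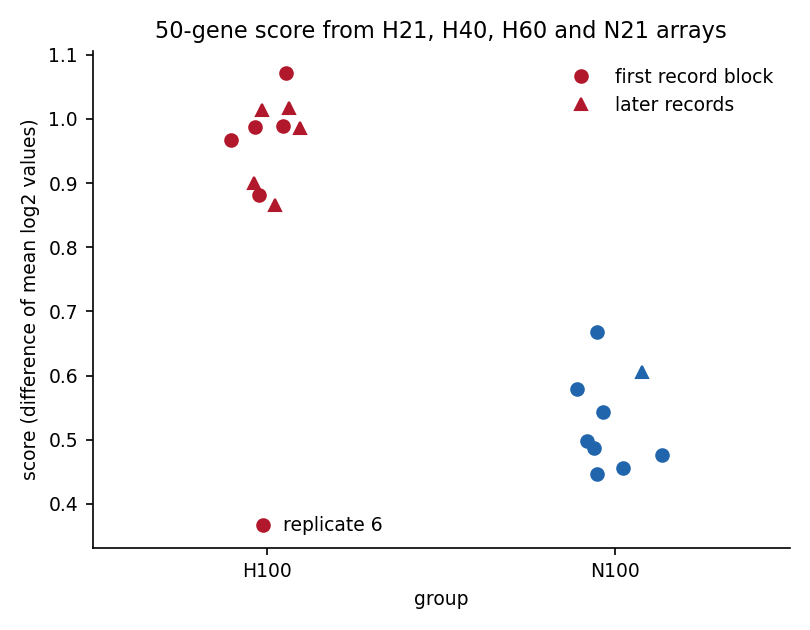
Score of each H100 and N100 brain array (difference of mean log2 values, vertical axis) on the 50 genes taken from the H21, H40, H60 and N21 arrays; circles are arrays of the first record block, triangles later ones. Of the 11 H100 arrays, 10 lie between 0.87 and 1.07, above the N100 arrays, and replicate 6 lies at 0.37, below them.

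Without H100 replicate 6, 4 genes rose in H100 relative to N100 (0.0201% called, limma, adjusted p under 0.05) and 0 fell. The same 3 genes were joined by Ccl12, with a difference of 0.87 ± 0.18 and an adjusted p of 0.0333. Mt2 then differed by 1.30 ± 0.23 with an adjusted p of 0.00389, Lcn2 by 0.86 ± 0.15 with an adjusted p of 0.00389, and A2m by 0.58 ± 0.11 with an adjusted p of 0.0107. Fkbp5 reached 0.43 ± 0.09 with an adjusted p of 0.0505. The count at an unadjusted p under 0.05 was 752 (3.77%), with 501 higher (2.51%) and 251 lower (1.26%). All 16 named differences were larger in size. The array was picked out by its own expression values, so these calls are not independent of that choice, and whether it is mislabelled or an animal with a small response was not tested.

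Within the first record block, which holds 6 H100 and 8 N100 arrays, 0 genes were called, with 417 of 19937 at an unadjusted p under 0.05 (limma). All 16 named genes had the same direction there, all 8 higher ones and 6 of the 8 lower ones with an unadjusted p under 0.05. Mt2 differed by 1.21 ± 0.29, Lcn2 by 0.87 ± 0.18 and A2m by 0.53 ± 0.12 in that block. The later records hold 5 H100 arrays and 1 N100 array, which allows no test. All 5 H100 arrays were above the N100 array for 7 of the 8 higher genes, and for Ccl12 it was 3 of 5. The 16 genes were chosen in a fit that holds all of these arrays. Their directions and p-values in either part of the records were thus largely set by that choice and are no separate support.

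The glucocorticoid-responsive list, 24 measured genes, had 2 called members, Lcn2 and Mt2, and 0 lower ones. At an unadjusted p under 0.05, 6 of the 24 were higher, against 1.56% of all genes, and 20 of 24 had a positive difference with a median of 0.08. Of these 6, Lcn2, Mt2, Fkbp5 and Mt1 were already named above for their small p in this comparison. Their part of the count was thus set by that choice. The members behind Lcn2, Mt2, Fkbp5 and Mt1 were Sult1a1, a sulfotransferase (0.36 ± 0.10), and Zbtb16, a transcription factor that glucocorticoids induce (0.18 ± 0.08). Glul, the astrocytic glutamine synthetase, differed by 0.17 ± 0.11. The list of reactive astrocyte and STAT3 genes, 14 measured, had Lcn2 as its only called member and 6 higher at an unadjusted p under 0.05, with a median difference of 0.17. Serpina3n, an acute-phase serine protease inhibitor of reactive astrocytes, had a median of 8.16 in H100 brains and 7.53 in N100 brains and differed by 0.56 ± 0.15. Osmr, the oncostatin M receptor that signals through STAT3, differed by 0.50 ± 0.15, and Vim, the intermediate filament vimentin, by 0.26 ± 0.09. The astrocyte filament gene Gfap differed by 0.25 ± 0.14. None of these 4 passed the test (adjusted p 0.855 for Serpina3n and 1 for the others). The 3 metallothioneins had 1 called member and a median of 0.51. Lcn2, Mt2 and Mt1 stand in more than 1 list, so the lists are not separate observations. They were named above for their small p, so their part in each list was set by that choice.

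Genes of the HIF response showed small differences about 150 min after the last exposure. Of 22 measured genes of glycolysis and glucose transport 0 were called, 4 were higher at an unadjusted p under 0.05, against 1.56% of all genes, and the median was 0.10. These 4 were Pdk1, the lactate exporter Slc16a3 (0.28 ± 0.09), the hexokinase Hk2 (0.33 ± 0.11) and the phosphofructokinase Pfkl (0.32 ± 0.13). Pdk1 was already named above for its small p. Ldha, lactate dehydrogenase A, differed by 0.19 ± 0.10, and the glucose transporter Slc2a1 by 0.25 ± 0.15. Of 29 HIF targets outside glycolysis 0 were called and 1 was higher at an unadjusted p under 0.05, with a median of 0.02. That one was Adm, the vasodilator adrenomedullin (0.24 ± 0.10), and Vegfa, the vascular growth factor, differed by 0.09 ± 0.07. Among 22 angiogenic ligands and receptors 0 were called. Angpt2, the antagonist of the Tie2 receptor, was at 0.34 ± 0.10 and the peptide ligand Apln at -0.29 ± 0.11.

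Other stress programmes had no called member. Hmox1, heme oxygenase 1, stood alone among 18 antioxidant genes with a median of 7.44 in H100 brains against 6.66 in N100 brains and a difference of 0.65 ± 0.21 (adjusted p = 1), and the list's median was 0.01. In a list of 16 cytokines and chemokines that does not hold Ccl12, Cxcl10, an interferon-induced chemokine, had 0.43 ± 0.15, while Il1b had -0.08 ± 0.11 and Tnf 0.07 ± 0.12, and the list's median was -0.01. Txnip and Arrdc4, alpha-arrestins that limit glucose uptake, had 0.24 ± 0.09 and 0.21 ± 0.09. Immediate-early genes had a median of 0.01 over 20 members and heat shock genes 0.02 over 12, with Bag3, a co-chaperone, at 0.22 ± 0.08. Of 18 clock genes 2 were lower at an unadjusted p under 0.05, Per3 (-0.23 ± 0.08) and Dbp (-0.17 ± 0.08), against 1.19% of all genes. Without H100 replicate 6 it was 1 of 18, and in H21 minus N21 0 were lower and 2 higher at that threshold. Replication genes had a median of -0.05 over 24 members.

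Markers of cell types and brain regions were set beside these values. None of the 18 marker lists had a called member, and their median differences ran from -0.21 to 0.07. Microglia markers had 3 of 10 lower at an unadjusted p under 0.05, P2ry12, Siglech and Csf1r, the receptor for the microglial growth factor (-0.17 ± 0.07), against 1.19% of all genes, while C1qa, a complement subunit of microglia, had 0.07 ± 0.14. P2ry12 and Siglech are among the genes already named for their small p. The median of the list was -0.08, with 2 of 10 members higher, and it was -0.01 in H21 minus N21. H100 replicates 8 and 9 were the lowest H100 arrays for P2ry12 (4.97 and 4.92), Siglech (5.08 and 5.197) and Blnk (4.19 and 4.13). H60 replicate 9 lay near them at 5.01, 5.29 and 4.23. The pattern was not confined to genes of microglia. H100 replicates 8 and 9 were also the lowest H100 arrays for Myorg (7.21 and 7.12) and Ctdspl (6.66 and 6.63). H60 replicate 9 was at 7.20 and 6.67 for these genes. H60 replicate 9 and H100 replicates 8 and 9 are consecutive sample records, 150, 151 and 152. The record block does not separate them from the other later records, and the part of record position in these values was not tested. H100 replicates 8 and 9 were also the highest H100 arrays for Stat3, at 9.27 each, with H60 replicate 9 at 9.25. Without H100 replicates 8 and 9, an alternative chosen after seeing the data, 2 of 10 microglia markers were lower at an unadjusted p under 0.05. The differences were then -0.26 ± 0.11 for P2ry12, -0.19 ± 0.09 for Siglech and -0.35 ± 0.11 for Blnk. Myorg then differed by -0.22 ± 0.09 and Ctdspl by -0.23 ± 0.08. Cx3cr1, Tmem119, C1qa and C1qb then had 0.04, 0.006, 0.12 and 0.07. Csf1r, Aif1, C1qc and Trem2 had -0.14, -0.07, -0.05 and -0.07, and the median of the list was -0.06. In the first record block alone, which holds neither array, Siglech differed by -0.16 ± 0.10 (p = 0.129). The mean level of the list ran from 6.51 to 6.96 in H100 brains and from 6.69 to 7.06 in N100 brains. Myelin genes had the lowest median, -0.21 over 9 members with 0 below an unadjusted p of 0.05, and Mbp differed by -0.27 ± 0.26. Their mean level ranged widely in both groups, from 6.80 to 8.79 in H100 brains and from 6.84 to 8.46 in N100 brains. Cerebellar markers had a median of -0.17 over 12, which was -0.08 without H100 replicate 6 and -0.03 without the block. Neuronal markers averaged 10.91 to 11.13 in H100 brains and 10.97 to 11.17 in N100 brains. Choroid plexus markers had a median of 0.07 over 8, with the water channel Aqp1 at 0.39 ± 0.12 and Ttr at 0.09 ± 0.15. Neutrophil markers, a cell type that also carries Lcn2, averaged 4.43 to 4.88 in H100 brains and 4.45 to 4.72 in N100 brains. Of 11 members, 7 had a positive difference, against 49.3% of all genes, and the median was 0.05. At an unadjusted p under 0.05, 1 of the 11 was higher, against 1.56% of all genes. The members S100a8 and S100a9 differed by 0.09 ± 0.11 and 0.05 ± 0.09. The part of these marker differences in the called genes was not tested.

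The same genes were then read in the 9 H21 and 9 N21 brains. Those arrays are in neither group of the comparison that chose the genes, but they stood in the same fit and so entered the choice through the shared spread and record block. All 8 genes with higher values in H100 were also higher in H21 than in N21, each with an unadjusted p under 0.05, against 0.888% of all genes higher at that threshold in H21 minus N21. Across the whole table H21 minus N21 had 0 called genes and 350 at an unadjusted p under 0.05 (1.76%, limma). Mt2 was at 11.01 to 12.36 in H21 brains (median 11.64) and at 10.01 to 11.69 in N21 brains (median 10.54), a difference of 1.08 ± 0.24. Lcn2 was at 5.64 to 6.54 in H21 brains (median 6.29) and at 5.25 to 6.45 in N21 brains (median 5.44), a difference of 0.67 ± 0.15, and 1 N21 array was above all but 2 of the H21 arrays. A2m was at 7.39 to 8.18 in H21 brains (median 7.83) and at 6.90 to 7.90 in N21 brains (median 7.36), a difference of 0.48 ± 0.11. Ccl12 differed by 0.72 ± 0.18, Mt1 by 0.63 ± 0.13 and Fkbp5 by 0.31 ± 0.09. Stat3 at 0.27 ± 0.10 and Pdk1 at 0.14 ± 0.07 had the smallest differences of the 8 after air. Of the 8 lower genes, 7 were lower in H21 as well, with an unadjusted p under 0.05 for 2 of them, Car4 (-0.23 ± 0.11) and Myorg (-0.30 ± 0.10), against 0.868% of all genes lower at that threshold. P2ry12 differed by -0.01 ± 0.11 after air and Insyn1 by 0.03 ± 0.08. When the 2 comparisons were fitted in separate sets of arrays, 8 of the 8 higher genes and 6 of the 8 lower ones had the same sign in both, against 53% of all genes. In the fit of the H21 and N21 arrays alone, 7 of the 8 higher genes and 2 of the 8 lower ones had that sign with an unadjusted p under 0.05. Over all 19937 genes this count was 197.

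**Figure D4:**
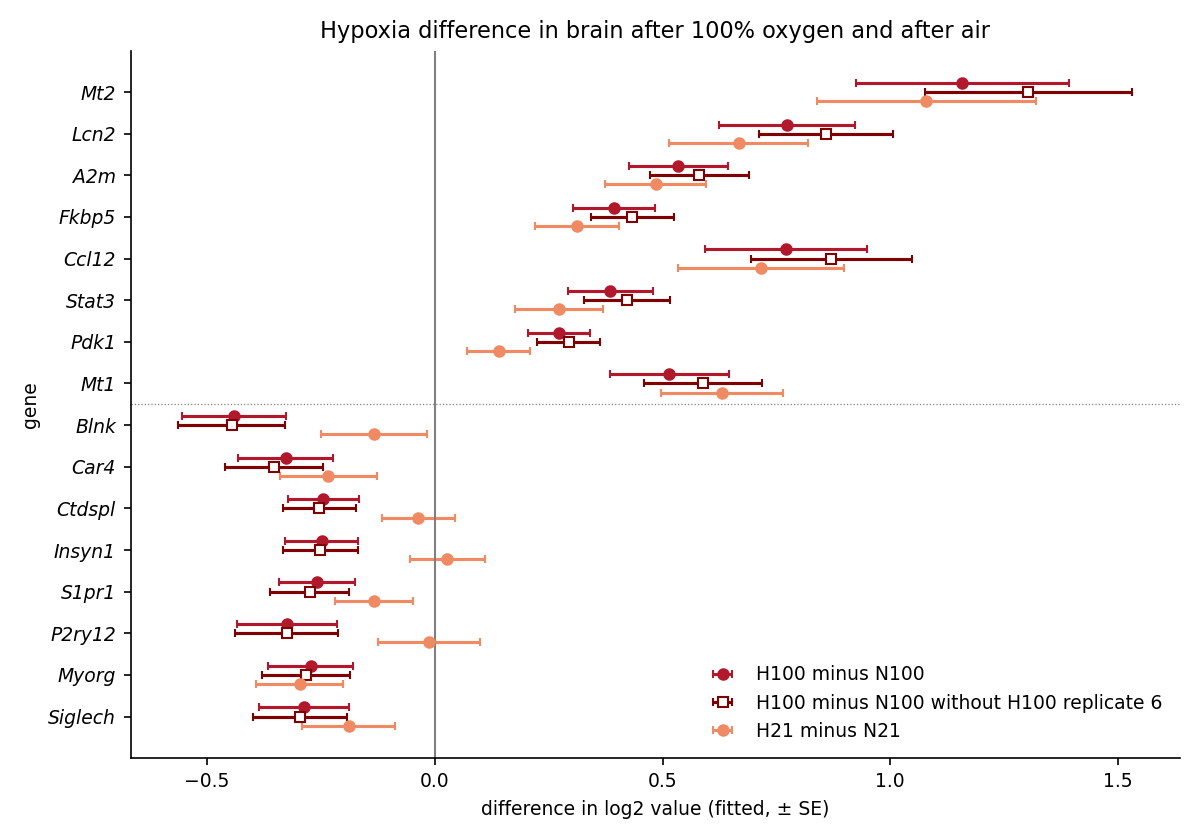
Fitted difference in log2 value (horizontal axis, ± SE) for the 8 genes with the smallest p in each direction: H100 minus N100, the same without H100 replicate 6, and H21 minus N21. The 8 upper genes lie right of 0 in all 3, and the 8 lower ones are nearer 0 after air for all but Myorg.

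The difference between the 2 hypoxia effects was tested directly. No gene was called in H100 minus N100 less H21 minus N21, with 289 at an unadjusted p under 0.05 (1.45%, limma). For Mt2 the difference of effects was 0.08 ± 0.34, for Lcn2 0.11 ± 0.22 and for A2m 0.05 ± 0.16, and differences of effect of this size were not detectable with these arrays. None of the 8 higher genes and 1 of the 8 lower ones, Insyn1 (-0.28 ± 0.11, p = 0.0195, adjusted p = 1), had an unadjusted p under 0.05. The smallest p over all genes belonged to the pseudogene Btnl5-ps (-0.63 ± 0.14, adjusted p = 0.66), followed by the amino acid transporter Slc7a7 (0.44 ± 0.12) and Magea6 (0.52 ± 0.15), both with an adjusted p of 1. The hypoxia groups with intermediate oxygen had levels in the same range: the median of Mt2 was 11.64 in H21, 11.39 in H40, 11.14 in H60 and 11.41 in H100 brains, that of Lcn2 6.29, 6.26, 6.06 and 6.15 in that order, and that of A2m 7.83, 7.78, 7.78 and 7.87.

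Lung and eye of the same design gave other values for some of these genes. Tissues were normalized separately, so only differences of changes were tested, in 1 fit of the arrays of all 3 tissues. That fit took the arrays of different tissues as separate units. The sample titles do not state which arrays share a mouse, so any sharing was not modelled. Mt2 differed between H100 and N100 by 0.33 ± 0.21 in lung and 0.79 ± 0.22 in eye, and Lcn2 by 0.27 ± 0.31 in lung and 0.68 ± 0.33 in eye. A2m had -0.13 ± 0.12 in lung and -0.005 ± 0.12 in eye, and brain exceeded lung by 0.67 ± 0.17 (p = 0.000143, adjusted p = 0.17) and eye by 0.54 ± 0.17 (adjusted p = 1). Fkbp5 differed by 0.56 ± 0.14 in lung (adjusted p = 0.0465) and by 0.27 ± 0.15 in eye. Mt1 had 0.07 ± 0.12 in lung and 0.50 ± 0.13 in eye, and Ccl12 0.18 ± 0.15 and 0.22 ± 0.16. Of the 8 higher genes, 7 were higher in lung and 7 in eye, and of the 8 lower ones 3 were lower in lung and 6 in eye. Several of these values lay within their SE of 0. The share of all genes with the same direction is not given here, so these counts stand without a background.

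**Figure D5:**
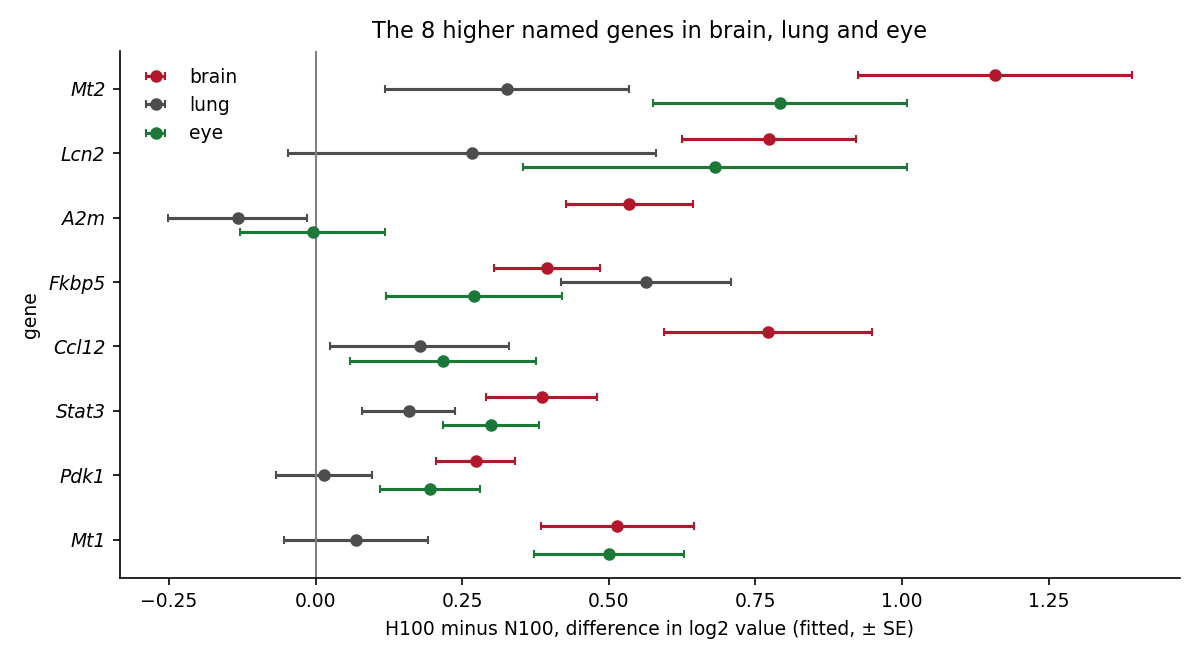
Fitted H100 minus N100 difference in log2 value (horizontal axis, ± SE) of the 8 genes with the smallest p among those higher in brain, in brain, lung and eye. Each gene lies closer to its brain value in eye than in lung, and A2m lies near 0 in eye.

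There were 10 genes that differed between the brain and lung effects (0.0502% called, limma, adjusted p under 0.05), all with the lower value in brain, and 559 had an unadjusted p under 0.05 (2.80%). The 5 of largest size were genes that stood near 0 in brain and were higher in H100 lungs. Fhl5, a LIM-domain cofactor, had -0.03 in brain and 1.34 in lung, a difference of -1.37 ± 0.30 (adjusted p = 0.0237). The flavin monooxygenase Fmo2 had -0.13 in brain and 0.97 in lung (difference -1.10), and the membrane dipeptidase Dpep1 0.08 in brain and 1.14 in lung (difference -1.06). Xdh, xanthine dehydrogenase, had -0.14 in brain and 0.83 in lung (difference -0.97, adjusted p = 0.00589), and the matrix protein gene Adamtsl2 -0.12 in brain and 0.82 in lung (difference -0.94, adjusted p = 0.00589). This count was 6 without H100 replicate 6 of brain and 0 when the 3 arrays whose profile is of another tissue than their label were kept. Between brain and eye 0 genes were called, with 691 at an unadjusted p under 0.05 (3.47%). The smallest p there was that of Hmox1, at 0.65 in brain and -0.27 in eye (difference 0.93 ± 0.23, adjusted p = 1).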

How the data were processed

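Expression in brain, lung and eye was measured on 177 arrays, 10 ng of total RNA each per the labels' protocols. Those protocols name a kit for blood RNA after a Ficoll gradient, although tissue was kept in RNAlater by the design text. The authors deposited log2 values made with RMA, per the submitters' processing notes, with no version given in the sources used here. Groups come from the sample titles. Of 34760 probe sets, 21640 have exactly 1 gene symbol, and the brightest probe set of a gene in brain was kept, leaving 19937 genes. Values ran from 1.50 to 14.5. Brain arrays share 1 distribution (sorted values within 0.0558 of the mean), with a brain median of 6.07. Precision is limited by how many arrays a group has, since arrays have no depth.

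One limma fit (limma 3.58.1, R 4.3.3, the data.table package in version 1.17.8, lmFit and eBayes, two-sided) held 58 brain arrays of 6 groups and the record block, so other groups add to the estimate of the spread. A gene was called where its p, adjusted over all genes by Benjamini-Hochberg, was under 0.05, and ± is the standard error of the fit unless SD is written. A fit of all tissues, without 3 arrays whose profile is of another tissue, gave the tissue differences. The named genes are up to 12 called genes in each direction, filled up to 8 by smallest p, without predicted genes, chemosensory receptors and small RNAs, then up to 5 called or 3 smallest p for the interaction and tissue differences, and up to 4 members of a list. Of 560 entries in 39 lists, 519 matched a tested gene. The members, lists and alternatives were chosen with earlier results of these data known. The score was meant to use called genes of the other groups. There were 0, so the listed alternative of 50 genes stands in its place. Promoter sequences are from RefSeq, and 14 of 16 named genes had one. Same-numbered arrays were not taken as pairs: over 8 numbers the correlation of their deviations ran from -0.286 to 0.258. The fits were tested on simulated data. Python 3.11.15, pandas 2.3.3, numpy 2.4.6 and matplotlib 3.10.9 were used.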

Additional observations from a re-analysis of the deposited data

Results flagged for a closer look

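The Stat3 value of N100 replicate 3, 8.728 on the log2 scale, lay apart from the other 8 N100 brains. The next value was 8.557, and the gap was 0.507 of the range of the 9 arrays, above the critical 0.493. It was 1 of 17 checks on the N100 group, and chance flags about 1 in 20 groups.

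The hypoxia difference under 100% oxygen differed between brain and lung, by the test of the difference itself (limma, adjusted p under 0.05), for the 5 genes named. Brain minus lung was -1.371 for Fhl5, -1.10 for Fmo2, -1.056 for Dpep1, -0.9676 for Xdh and -0.9391 for Adamtsl2 on the log2 scale.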

How the results depend on the processing

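The direction of all 16 named genes held in every alternative run, which together gave 446 results on the same side of the threshold, 70 no longer called and 7 newly called. The 70 lost calls all belong to the 3 called genes. Mt2 stayed called in 10 of 33 alternatives, Lcn2 in 10 of 32 and A2m in 8 of 33. The count of called genes for H100 minus N100 was 3 and did not hold. It was 0 in the first record block alone, with only the H100 and N100 arrays, with H40 replicate 7 kept, with the trend and robust options of eBayes, with every probe set tested, and with the replicate block beside the record block (746 at an unadjusted p under 0.05), where the numbers do not pair the arrays. It was 1 with a block of 3 levels, where the gene was Ccl12, and 26 with array quality weights, all higher and including Mt2, Lcn2 and A2m. It was 2 (Mt2 and Lcn2) without H100 replicates 8 and 9, a setting chosen after seeing the data. The count was also 2 without the block and with the dimmest 40% of genes left out, and the genes were Mt2 and A2m each time. Lcn2 had an adjusted p of 0.0719 without the block (limma) and was itself among the dim genes left out. With quantile normalization again or a sex covariate the count was 3. Leaving out 1 H100 or N100 array gave 0 to 4. Leaving out 1 H21 or N21 array, which touches only the shared spread and block, gave 0 called genes in 9 of 18 fits and at most 3. For H21 minus N21 the count of 0 became 1 with array quality weights and ranged from 0 to 6 with 1 array left out. The interaction count was 0 in every alternative. Brain minus lung had 6 genes without H100 replicate 6 and 0 with the 3 arrays of another tissue, where 10 were called otherwise. The score difference of 0.384 was 0.371 without the block, 0.298 with 100 genes, 0.200 with 200 and 0.253 with the named genes taken out, settings chosen after seeing the data, and 10 of 11 H100 arrays stayed above all N100 arrays in each. The cause of these changes was not tested. Outside the fit with weights, differences of the size seen for Stat3 (0.39) and Pdk1 (0.27) were not called with 9 to 11 arrays a group.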

Other observations

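With array quality weights, limma called genes outside those described above, each higher in H100 than in N100 and none of them called without the weights. They include Anxa2, an annexin that binds membranes and actin, at 0.59 ± 0.11 (adjusted p = 0.00576), Adgrl4, an adhesion receptor of endothelium, at 0.58 ± 0.11 (adjusted p = 0.00576), Irgm1, an interferon-induced GTPase, at 0.64 ± 0.13 (adjusted p = 0.0186), and C5ar1, the receptor of the complement fragment C5a, at 0.47 ± 0.10 (adjusted p = 0.0236). These 4 were singled out after their values were seen. Without weights Adgrl4 differed by 0.44 ± 0.16 between H100 and N100 and by 0.73 ± 0.16 between H21 and N21, and Anxa2 by 0.46 ± 0.13 and 0.25 ± 0.13.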
